A study of Mus musculus with 90 samples.

Results

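Transcript levels in the cerebrum of female C57BL/6 mice, C57BL/6J in the study's methods, were compared between estrus and diestrus. The comparison rests on 6 of the 90 RNA-seq libraries of a survey of 15 tissues, with 3 cerebrum libraries per phase. The members are every cerebrum library whose label gives one of the phases, and no measured value entered that choice. The animals were labelled as 10 weeks old and unmanipulated, the phase was read from vaginal secretions stained with methylene blue, and the frozen tissue was profiled by mRNA enrichment and BGISEQ-500 sequencing. The phases were each represented by 3 mice, named estrus 1 to 3 and diestrus 1 to 3 below, so that the p-values measure the spread between these few animals, and every single-gene comparison of 3 against 3 has an exact permutation p of at least 0.1. The labels name the tissue as cerebrum without the side, the block taken or the hour of dissection.

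The cerebrum of a mouse holds the cortex, the hippocampus and the striatum, each with its own neurons. Its ventricles are lined by ependyma and hold the choroid plexus. Ovarian estradiol rises before estrus and progesterone dominates in diestrus, and both reach brain cells through nuclear receptors encoded by Esr1, Esr2 and Pgr as well as through membrane receptors. Estradiol is known to change dendritic spine density in the hippocampus across the cycle, and oxytocin, vasopressin and enkephalin genes are classical estrogen-responsive genes of the brain.

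Each library held values for 20414 genes as FPKM, fragments scaled to transcript length and library size, and the 12951 genes that averaged 1 FPKM or more in the 6 cerebrum libraries were tested on the log2(FPKM + 1) scale. The steps of the low values put the depth at about 15300000 to 15600000 reads a library, and 3051 to 3236 genes were listed at 0 in each. The tissue label matched its markers. Slc17a7, the vesicular glutamate transporter of cortical neurons, was at 469 to 675 FPKM in the 6 cerebrum libraries and at 2.60 to 21.2 FPKM in the 6 hypothalamus libraries of the same survey, a log2 difference in level of 6.34 ± 0.338 (SE; limma adjusted p = 2.71e-08), in a comparison of levels that called 71.9% of 13280 genes at an adjusted p of at most 0.05. Pmch, which encodes the melanin-concentrating hormone precursor of the lateral hypothalamus, was at 0.32 to 16.8 FPKM in cerebrum and at 508 to 725 FPKM in hypothalamus.

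The 6 libraries did not group by phase. The mean Pearson correlation of log2(FPKM + 1) across genes was 0.983 within a phase (6 pairs, 0.976 to 0.994) and 0.985 between phases (9 pairs, 0.978 to 0.993). Phase took up 14.8% of the total sum of squares over the tested genes, and the other 85.2% lay between libraries of the same phase. Any split of the 6 libraries into 3 and 3 takes up some share, so the 14.8% alone shows no effect of phase. The first principal component, with 45.1% of the variance, set estrus 2 and diestrus 1 apart from the other 4 libraries, and the second, with 26.7%, set estrus 3 apart.

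Genes of the striatum followed the first of these axes. Their summed level was 1396 FPKM in estrus 2 and 1469 FPKM in diestrus 1, 576 FPKM in estrus 3, and 145 to 204 FPKM in the other 3 libraries. Ppp1r1b, encoding the dopamine-regulated phosphatase inhibitor of striatal projection neurons, was at 417 FPKM in estrus 2, 164 FPKM in estrus 3 and 37.7 FPKM in estrus 1, against 455 FPKM in diestrus 1, 57.8 FPKM in diestrus 2 and 40.1 FPKM in diestrus 3. Penk, the enkephalin precursor, was at 19.6, 329 and 197 FPKM in estrus 1 to 3 and at 378, 29.4 and 15.5 FPKM in diestrus 1 to 3. High and low striatal levels were thus found in both phases, and the same split held for the dopamine receptor genes Drd1 and Drd2. Hippocampal markers ran the other way, with summed levels of 64.1 FPKM in estrus 2 and 66.2 FPKM in diestrus 1 and 148 to 231 FPKM in the other 4. Spink8, a marker of hippocampal pyramidal cells, was at 10.6, 0.58 and 2.70 FPKM in estrus 1 to 3 and at 0.38, 2.94 and 3.47 FPKM in diestrus 1 to 3.

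The summed levels of pituitary and hypothalamic markers were highest in estrus 2, at 395 and 62.4 FPKM, and next in estrus 3, at 93.6 and 45.6 FPKM, while single hypothalamic genes such as Trh were highest in estrus 3. Prl, which encodes prolactin of the anterior pituitary, was at 10.3, 256 and 68.6 FPKM in estrus 1 to 3 and at 5.01, 6.91 and 31.5 FPKM in diestrus 1 to 3. Gh, encoding growth hormone, was at 5.64, 124 and 18.4 FPKM in estrus and at 2.69, 3.09 and 14.7 FPKM in diestrus. Their ranges overlapped between phases because diestrus 3 lay above estrus 1. The summed level of the thalamic markers was 179 FPKM in estrus 2 and 75.7 to 139 FPKM in the other 5 libraries. The choroid plexus markers summed to 268, 522 and 924 FPKM in estrus 1 to 3 and to 309, 389 and 122 FPKM in diestrus 1 to 3. In these bulk samples, fewer cells of a type and less RNA per cell cannot be told apart. The part of these regional levels in each phase difference reported below was not tested, beyond the values given without single libraries.

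**Figure D1:**
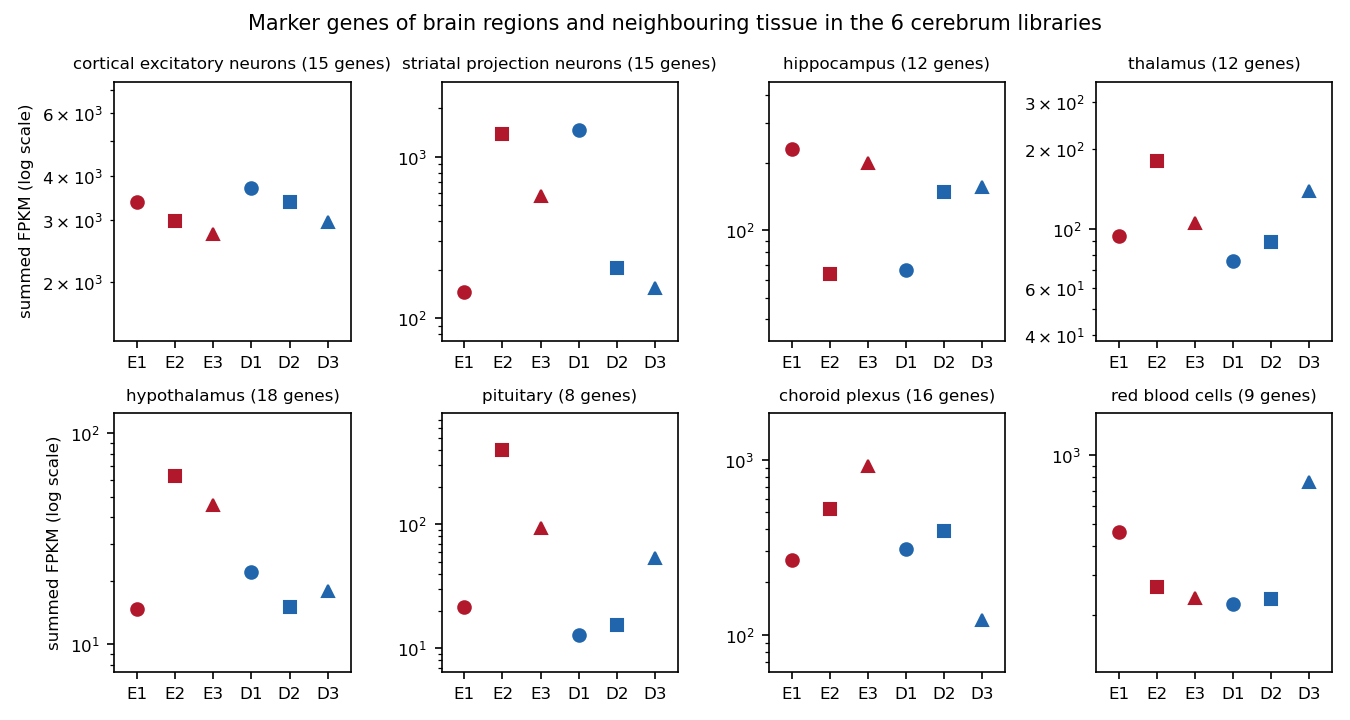
Summed FPKM of the markers of 8 regions and cell types in each of the 6 cerebrum libraries (log axes; E1 to E3 in red, estrus; D1 to D3 in blue, diestrus; 1 point per library). Estrus 2 and diestrus 1 carry the highest striatal sums, 1396 and 1469 FPKM, and the lowest hippocampal sums, and estrus 2 has the highest pituitary sum, 395 FPKM.

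No gene passed the test between the phases. Of 12951 genes, 0 reached an adjusted p of at most 0.05 with limma and Benjamini-Hochberg adjustment (0%), the smallest adjusted p being 1, and 389 genes (3%) had an unadjusted p under 0.05, 232 of them higher in estrus (1.79%) and 157 lower (1.21%). That split depended on the scaling of the libraries: it was 189 higher against 213 lower after scaling to the median ratio and 159 against 227 after quantile normalization. Differences were small over the transcriptome, with a median log2 fold change (estrus minus diestrus) of 0.02, a median size of 0.07, 7524 genes (58.1%) higher in estrus and 5427 (41.9%) lower.

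A total of 15 genes (0.116%) differed by at least 1 on the log2 scale, 14 higher in estrus (0.108%) and 1 lower (0.00772%), and the phases did not overlap in 3 (0.0232%). These 3 were Oxt, Dlk1 and Gm2573. Dlk1 and Gm2573 were singled out after their values were seen. Oxt, the oxytocin precursor of hypothalamic neurons, was at 2.61, 3.24 and 0.97 FPKM in estrus 1 to 3 and at 0.03, 0.47 and 0.62 FPKM in diestrus 1 to 3. Every estrus library lay above every diestrus library, with a log2 fold change of 1.21 ± 0.311 (SE; limma adjusted p = 1). At these low levels the size depended on the pseudocount and was 2.50 with a pseudocount of 0.1. Dlk1, a transmembrane Notch-family ligand abundant in hypothalamic and midbrain neurons, was at 2.42, 5.26 and 12.7 FPKM in estrus and at 1.06, 1.45 and 1.81 FPKM in diestrus, a log2 fold change of 1.46 ± 0.458 that was 0.93 without estrus 3. Gm2573, a predicted gene that may share reads with near-identical copies, was at 1.84, 5.49 and 1.48 FPKM in estrus and at 6.68, 7.18 and 7.25 FPKM in diestrus. The Oxt level in cerebrum was far below that in hypothalamus, where the 6 libraries held 191 to 546 FPKM.

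The other 12 large differences had overlapping phases. Pmch was at 1.17, 16.8 and 2.10 FPKM in estrus 1 to 3 and at 0.32, 0.77 and 1.2 FPKM in diestrus 1 to 3, and its log2 fold change of 1.51 became 0.59 without estrus 2. Prl had the largest log2 fold change, 2.35 ± 1.14 (SE), which was 1.28 without estrus 2. Gh had a log2 fold change of 2.03 ± 1.07, or 0.88 without estrus 2. Trh, the thyrotropin-releasing hormone precursor, was at 0.50, 4.07 and 15.7 FPKM in estrus and at 2.00, 0.91 and 0.90 FPKM in diestrus, and its log2 fold change of 1.18 became 0.32 without estrus 3. Avp, the vasopressin precursor, was at 0.80, 9.98 and 3.27 FPKM in estrus and at 1.75, 0.64 and 0.91 FPKM in diestrus, with estrus 1 inside the diestrus range. Ttr, the thyroid hormone carrier made by choroid plexus, was at 150, 340 and 713 FPKM in estrus and at 178, 260 and 25.02 FPKM in diestrus, so that its log2 fold change of 1.64 went with a low value in diestrus 3 and a high value in estrus 3.

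Differences shared by all mice of a phase were smaller. The phases did not overlap for 1010 genes (7.8%), 637 higher in estrus (4.92%) and 373 lower (2.88%). With 3 against 3 libraries, non-overlap has an exact permutation p of 0.1. A share near 0.1 of genes would thus not overlap even without any phase effect, and the 7.8% was not above it. In 69 genes (0.533%) the gap between the phases was also wider than the range within either phase, and these are called separated below. Of them, 39 were higher in estrus (0.301%) and 30 lower (0.232%), their median size was 0.19 on the log2 scale, and 3 reached 0.5. None of the 69 reached a log2 fold change of 1 in either direction, and limma gave each an adjusted p of 1.

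Klf2 and Tmem267 led the separated genes that were higher and lower in estrus. Klf2, a Kruppel-like transcription factor of endothelium and immune cells, was at 11.7, 11.2 and 11.4 FPKM in estrus 1 to 3 and at 8.10, 6.15 and 8.08 FPKM in diestrus 1 to 3. Its log2 fold change was 0.56 ± 0.108 (SE). Ly86, Hcls1, Ltbr and Apobec3 are known from immune cells. Ly86, the lymphocyte antigen that partners a Toll-like receptor homolog, was at 12.4, 11.3 and 12.3 FPKM in estrus and at 9.91, 8.81 and 8.89 FPKM in diestrus, a log2 fold change of 0.35 ± 0.078. Hcls1, a cortactin-related protein of blood cells, was at 2.56 to 3.00 FPKM in estrus and at 1.72 to 1.99 FPKM in diestrus. Ltbr, the lymphotoxin beta receptor, was at 4.27 to 4.74 FPKM in estrus and at 3.20 to 3.37 FPKM in diestrus. Apobec3, a cytidine deaminase that restricts retroviruses, was at 1.95 to 2.05 FPKM in estrus and at 1.31 to 1.44 FPKM in diestrus. The other 5 have general or synaptic roles. Cks1b, a subunit of cyclin-dependent kinases, was at 2.07 to 2.62 FPKM in estrus and at 1.29 to 1.45 FPKM in diestrus, with a log2 fold change of 0.47. Ggh, the lysosomal gamma-glutamyl hydrolase of folate metabolism, was at 9.02 to 9.84 FPKM in estrus and at 7.18 to 7.57 FPKM in diestrus. Nudt2, a hydrolase of dinucleoside polyphosphates, and Rpusd4, a mitochondrial pseudouridine synthase, had log2 fold changes of 0.33 and 0.31. Cdh9, a cadherin of synaptic wiring, was at 8.97, 9.82 and 8.59 FPKM in estrus and at 6.97, 7.25 and 6.24 FPKM in diestrus.

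The other 10 genes were lower in estrus. Tmem267, which encodes a transmembrane protein, was at 14.6, 11.4 and 11.3 FPKM in estrus 1 to 3 and at 19.8, 19.2 and 18.9 FPKM in diestrus 1 to 3, a log2 fold change of -0.61 ± 0.104 (SE). Emx1, the homeobox gene of the dorsal telencephalon, was at 9.14, 8.89 and 8.10 FPKM in estrus and at 13.5, 11.9 and 11.2 FPKM in diestrus, a log2 fold change of -0.44 ± 0.090. Vip, the vasoactive intestinal peptide of a class of cortical interneurons, was at 17.9, 16.0 and 17.7 FPKM in estrus and at 22.0, 22.7 and 24.8 FPKM in diestrus, a log2 fold change of -0.41 ± 0.078. Both genes mark neurons of the cortex, Emx1 those that release glutamate and Vip those that release GABA. Sdk2, a synaptic adhesion molecule, was at 2.79 to 3.21 FPKM in estrus and at 4.38 to 5.10 FPKM in diestrus, a log2 fold change of -0.55. Rbp4, the plasma retinol carrier, was at 7.73 to 9.08 FPKM in estrus and at 10.9 to 12.2 FPKM in diestrus, a log2 fold change of -0.47. Ptk2, the focal adhesion kinase, was at 22.1 to 24.7 FPKM in estrus and at 27.9 to 30.2 FPKM in diestrus. Npas2, the partner of Bmal1 in the forebrain clock, and Mcf2l, a guanine nucleotide exchange factor, had log2 fold changes of -0.28 and -0.26, and Lin9 and Hspbap1, at 1.07 to 2.08 FPKM, had -0.29 and -0.24. Each of these 20 genes kept its direction when any of the 6 libraries was left out, a property that the way the separated genes were chosen fixes.

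**Figure D2:**
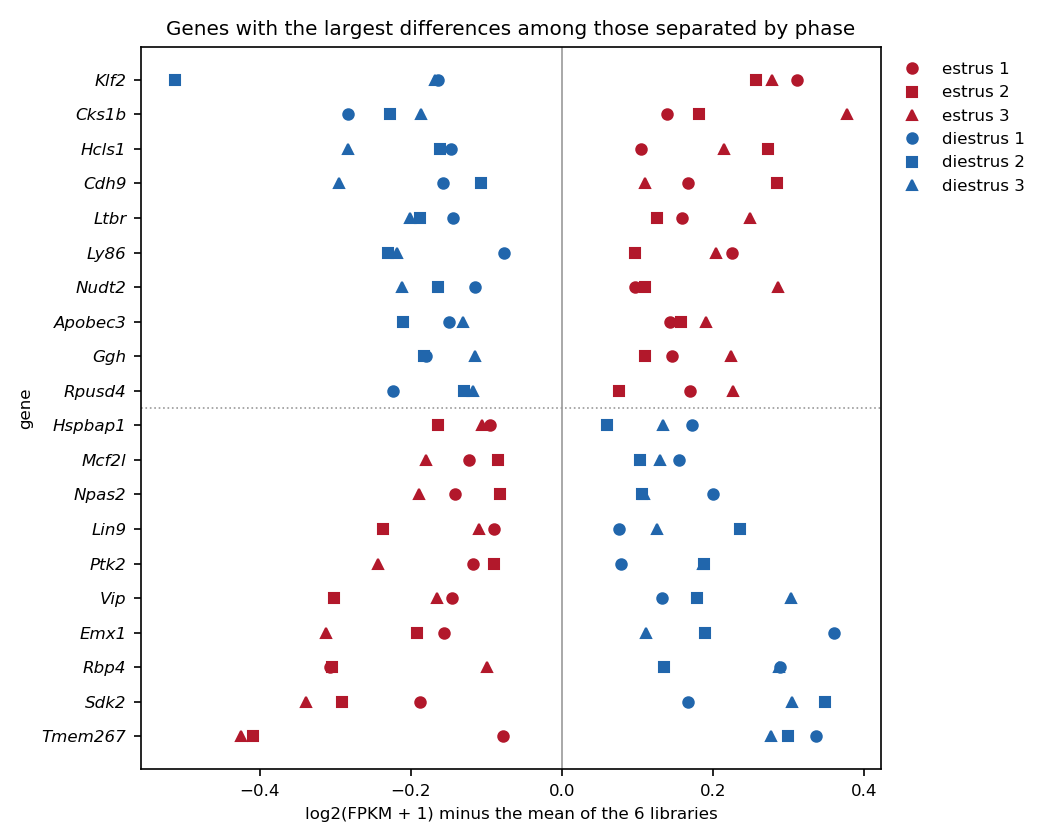
log2(FPKM + 1) minus the mean of the 6 cerebrum libraries (x axis) for the 10 separated genes with the largest difference in each direction (y axis), 1 point per library, estrus in red and diestrus in blue. Klf2 has the largest positive difference, 0.56, Tmem267 the largest negative, -0.61, and the gap between the colours is wider than the spread within either, as the choice of genes requires.

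Genes were then described by role. Besides those the naming rule gives, members whose phases did not overlap are named, after their values were seen. Over all tested genes, 4.92% were higher in estrus without overlap and 2.88% lower, the shares beside which such members stand. The genes for steroid hormone receptors lay near the rest of the transcriptome. Of 14 tested members, 8 were higher in estrus and 6 lower, with a median log2 fold change of 0.03, beside 0.02 over all 12951 genes. The estrogen receptors themselves were scarce. Esr1 was at 0.43, 0.58 and 1.77 FPKM in estrus 1 to 3 and at 0.61, 0.59 and 0.37 FPKM in diestrus 1 to 3, and Esr2 lay between 0.23 and 0.50 FPKM, so that neither entered the test. Pgr, the progesterone receptor that estradiol induces in many tissues, was at 4.61, 5.71 and 3.70 FPKM in estrus and at 5.22, 5.49 and 4.82 FPKM in diestrus. Its phases overlapped, with a log2 fold change of -0.14 ± 0.137 (SE). Gper1, the membrane estrogen receptor, was at 1.08 to 1.15 FPKM in estrus and at 0.90 to 1.23 FPKM in diestrus. The glucocorticoid receptor gene Nr3c1 was at 17.5, 23.2 and 14.5 FPKM in estrus and at 18.8, 19.3 and 18.2 FPKM in diestrus. The mineralocorticoid receptor gene Nr3c2, which is high in hippocampus, was at 21.4 FPKM in estrus 1 and at 7.80 to 11.1 FPKM in the other 5 libraries. Its log2 fold change of 0.29 turned to -0.10 without estrus 1. Pgrmc1, a membrane progesterone-binding protein, was at 113, 106 and 182 FPKM in estrus and at 100.4, 112 and 116 FPKM in diestrus, high in estrus 3 alone.

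Receptor partners, steroid-making enzymes and hormone-responsive genes had medians near that of all genes. Of 16 coregulators and chaperones, 5 were higher in estrus, with a median of -0.03, and Ncoa2, the steroid receptor coactivator, was at 15.6 to 16.7 FPKM in estrus and at 16.9 to 18.8 FPKM in diestrus without overlap. Of 17 tested genes of neurosteroid synthesis, 10 were higher in estrus, with a median of 0.02, and no member had phases that did not overlap. Aromatase, encoded by Cyp19a1 and singled out after its values were seen, was at 0.04 to 0.25 FPKM and was not tested. Cyp11a1, the enzyme that opens the pathway from cholesterol, was at 2.95, 3.66 and 1.87 FPKM in estrus and at 3.84, 3.81 and 3.43 FPKM in diestrus, a log2 fold change of -0.32 ± 0.177 (SE). Of 40 tested genes listed as estrogen-responsive in brain, 25 were higher in estrus and 15 lower, with a median of 0.05. Oxt and Cited1, 2 of the 40, were higher in estrus without overlap, near the 4.92% of all genes. Cited1, a transcriptional coregulator, was at 2.07 to 2.45 FPKM in estrus and at 1.34 to 1.92 FPKM in diestrus. The list's largest differences were those of Oxt, Avp and Trh, and Penk was high in the libraries with high striatal sums. Of 25 tested glucocorticoid targets, 12 were higher in estrus, with a median of -0.01. Ddit4, an inhibitor of mTORC1 signalling, was at 15.3, 17.0 and 15.8 FPKM in estrus and at 11.1, 9.62 and 12.7 FPKM in diestrus, without overlap and with a log2 fold change of 0.49 ± 0.105, and it was the list's only member of that kind.

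Marker lists of the other regions were higher in estrus, and most hung on few libraries. Of 14 tested striatal markers, 12 were higher, with a median log2 fold change of 0.41 that ran from -0.36 without estrus 2 to 1.31 without diestrus 1. Of 9 hippocampal markers, 8 were higher, with a median of 0.22 that ran from -0.41 to 0.52 with single libraries left out, and of 11 thalamic markers 10 were higher, with a median of 0.16 that ran from -0.15 to 0.44. Of 18 listed hypothalamic markers, 7 were tested. Of these, 6 were higher, with a median of 1.10, or 0.44 without estrus 2. Oxt and Pmch, with diestrus means of 0.37 and 0.76 FPKM, passed the filter only through their estrus values. The filter thus favoured members high in estrus here, also in the fits with a library left out. All 4 tested pituitary markers were higher, with a median of 1.33, or 0.46 without estrus 2. Tshb, the thyrotropin subunit gene, was the pituitary member without overlap, at 4.26 to 4.38 FPKM in estrus and at 4.10 to 4.25 FPKM in diestrus. Its gap was only 0.003 on the log2 scale, and it did not share the wide spread of Prl and Gh between libraries. All 7 olfactory bulb markers were higher, with a median of 0.24 that stayed between 0.21 and 0.49 with any library left out. The list's mean log2(FPKM + 1) overlapped between phases, at 2.91, 3.37 and 3.66 in estrus 1 to 3 and 3.01, 2.8 and 3.07 in diestrus 1 to 3. Pcp4, its most abundant member, was highest in the striatal-high libraries, at 593 FPKM in estrus 2 and 495 FPKM in diestrus 1.

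Most cortical glutamatergic markers were lower in estrus, with no call. Of 15, 13 were lower, with a median log2 fold change of -0.27, and 4 had phases that did not overlap, all of them lower in estrus, beside 2.88% of all genes. Cux2, a homeobox gene of the upper cortical layers, was at 14.4, 20.1 and 14.6 FPKM in estrus and at 24.2, 24.7 and 23.4 FPKM in diestrus, a log2 fold change of -0.55 ± 0.127. Tbr1, a T-box factor of deep-layer neurons, was at 31.7, 39.7 and 33.6 FPKM in estrus and at 54.8, 42.8 and 39.9 FPKM in diestrus, so that estrus 2 and diestrus 3 lay side by side. The more abundant members of the list showed less. Slc17a7 was at 627, 469 and 624 FPKM in estrus and at 596, 675 and 570.5 FPKM in diestrus, Camk2a overlapped as well, and Nrgn, the postsynaptic calmodulin-binding protein, was at 1349, 1472 and 1031 FPKM in estrus and at 1847, 1392 and 1211 FPKM in diestrus. The list's median stayed between -0.31 and -0.16 with any library left out and was -0.30 without both striatal-high libraries, and its summed level ran from 2730 to 3364 FPKM in estrus and from 2967 to 3692 FPKM in diestrus.

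Interneuron and general neuronal markers were mixed. Of 13 GABAergic interneuron markers, 7 were higher in estrus, with a median of 0.05, and Vip was the only one whose phases did not overlap. Sst, the somatostatin gene, was at 403, 320 and 531 FPKM in estrus 1 to 3 and at 379, 354 and 380 FPKM in diestrus 1 to 3, and Pvalb, the parvalbumin gene, was at 49.4, 80.4 and 25.9 FPKM in estrus and at 66.1, 51.3 and 55.1 FPKM in diestrus. Of 14 general neuronal markers, 11 were lower in estrus, with a median of -0.04. Syp, the synaptic vesicle protein synaptophysin, was at 534 to 691 FPKM in estrus and at 578 to 634 FPKM in diestrus. Gap43, the growth cone protein, was at 248 FPKM in estrus 3 and at 121 to 152 FPKM in the other 5 libraries.

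Microglial markers were higher in estrus in small steps. Of 14, 13 were higher, with a median of 0.17, and 5 had phases that did not overlap, all higher in estrus, beside 4.92% of all genes. C1qb, a chain of the first complement component, was at 37.6, 40.0 and 43.3 FPKM in estrus 1 to 3 and at 35.1, 34.2 and 35.1 FPKM in diestrus 1 to 3, a log2 fold change of 0.20 ± 0.070 (SE). Olfml3, an extracellular protein of microglia, was at 13.2, 12.4 and 16.1 FPKM in estrus and at 10.1, 11.3 and 11.1 FPKM in diestrus, a log2 fold change of 0.33 ± 0.106. Ctss, the lysosomal protease cathepsin S, was at 34.9 to 42.2 FPKM in estrus and at 31.4 to 33.7 FPKM in diestrus. C1qa, another chain of the same complex, also had phases that did not overlap. The receptor genes Cx3cr1 and P2ry12, singled out after their values were seen, overlapped, at 14.6 to 16.1 and 18.0 to 21.7 FPKM in estrus and at 12.3 to 15.6 and 16.2 to 20.9 FPKM in diestrus. The summed level of the list was 313, 323 and 326 FPKM in estrus and 289, 282 and 274 FPKM in diestrus, and its median stayed between 0.13 and 0.21 with any library left out. Its members come from the same cells and were not treated as replicates. Leukocyte markers were low. Of the list, 1 gene entered the test, Cd4, which was at 9.63 FPKM in estrus 2 and 10.6 FPKM in diestrus 1, the libraries with the highest striatal sums, and at 0.23 to 2.2 FPKM in the others, and Ptprc, singled out after its values were seen, was at 0.49 to 0.91 FPKM.

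The oligodendrocyte lineage followed. Of 10 markers of oligodendrocyte precursors, 8 were higher, with a median of 0.14. Olig1 and Neu4 were higher without overlap, beside 4.92% of all genes. Both were separated, beside 0.533% of all genes. Olig1, the lineage's basic helix-loop-helix factor, was at 55.3, 54.6 and 55.7 FPKM in estrus 1 to 3 and at 43.4, 45.2 and 46.6 FPKM in diestrus 1 to 3, a log2 fold change of 0.29 ± 0.059 (SE). Neu4, a sialidase, was at 2.56, 2.48 and 2.84 FPKM in estrus and at 1.96, 2.06 and 2.13 FPKM in diestrus. All 17 myelin markers were higher in estrus, with a median of 0.11, a median that was -0.10 without estrus 2. Mbp, the myelin basic protein gene, was at 1212, 1693 and 799 FPKM in estrus and at 1130, 1015 and 1104 FPKM in diestrus, so that estrus held both the highest and the lowest library. Sox10, the transcription factor of the whole lineage, was at 22.8, 22.9 and 18.9 FPKM in estrus and at 15.6, 18.5 and 18.8 FPKM in diestrus, without overlap. Astrocyte markers had a median of 0.05, or -0.08 without diestrus 1, with 9 of 14 higher in estrus. S100b was at 63.2 to 85.2 FPKM in estrus and at 59.98 to 62.8 FPKM in diestrus, while Gfap, the intermediate filament, was at 91.3, 46.7 and 94.2 FPKM in estrus and at 33.0, 89.1 and 72.7 FPKM in diestrus.

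Cells of the ventricles and vessels came next. Of 16 listed choroid plexus markers, 11 were tested, and all 11 were higher in estrus. Their median log2 fold change was 0.61 and stayed between 0.34 and 0.74 with any library left out. Of the 11, 3 had phases that did not overlap, all higher in estrus, beside 4.92% of all genes. Kcne2 and Prlr were under 1 FPKM in every diestrus library and passed the filter only through their estrus values. The fits with a library left out kept the same 11 genes. Kcne2, a potassium channel subunit, was at 0.71, 2.66 and 3.94 FPKM in estrus 1 to 3 and at 0.82, 0.93 and 0.18 FPKM in diestrus 1 to 3, with estrus 1 inside the diestrus range, and Folr1, the folate receptor, was at 1.41, 2.30 and 6.09 FPKM in estrus and at 1.43, 1.83 and 0.40 FPKM in diestrus. The 3 were Kl, Sostdc1 and Prlr. Kl, the klotho gene, was at 4.30, 3.76 and 5.91 FPKM in estrus and at 2.18, 3.57 and 1.92 FPKM in diestrus, and Prlr, the prolactin receptor gene, was at 0.90, 1.58 and 2.00 FPKM in estrus and at 0.85, 0.83 and 0.50 FPKM in diestrus. The same order of libraries, estrus 3 highest and diestrus 3 lowest, ran through Ttr, Kcne2 and Folr1. All 8 ependymal markers were higher in estrus, with a median of 0.31 that was 0.02 without estrus 3 and 0.49 without diestrus 2. Dynlrb2, a dynein light chain of motile cilia and the 1 member without overlap, was at 1.95, 1.43 and 3.57 FPKM in estrus and at 1.29, 1.30 and 0.64 FPKM in diestrus. Of 14 endothelial markers, 5 were higher in estrus. Cldn5, the tight junction claudin, was at 14.8, 12.9 and 11.9 FPKM in estrus and at 10.4, 11.3 and 9.86 FPKM in diestrus, whereas Ly6c1 was at 40.0 to 42.3 FPKM in estrus and at 44.1 to 61.5 FPKM in diestrus. Both had phases that did not overlap, in opposite directions, and Kdr, a VEGF receptor gene, was at 1.92 to 2.30 FPKM in estrus and at 1.55 to 1.85 FPKM in diestrus. Mural markers had a median of 0.06. Meningeal markers had a median of 0.10 that was -0.11 without estrus 3 and -0.13 without diestrus 1, and the 6 tested red blood cell genes had -0.05, which ran from -0.52 without diestrus 2 to 0.39 without diestrus 3. Hba-a1 and Hbb-bs, the globin genes of red blood cells, which share reads with near-identical copies, were at 223 and 233 FPKM in diestrus 3, 146 and 105 FPKM in estrus 1 and 15.0 to 50.5 FPKM in the other 4 libraries.

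Most clock output genes were lower in estrus without passing the test. Bmal1 and its partners Clock and Npas2 bind E-box elements and drive the period, cryptochrome and PAR-domain genes, which peak later in the day and of which the period and cryptochrome proteins feed back on Bmal1. Of 12 genes that peak with Dbp, 11 were lower in estrus, with a median log2 fold change of -0.17, and 3 had phases that did not overlap, Per2, Per3 and Tef, all lower in estrus, beside 2.88% of all genes. The promoter windows of Ciart and Tef from the first of these groups and of Cry1 from the group that peaks with Bmal1 are shown because they hold the E-box letters CACGTG, in capitals, in genes named below. They run from 250 bases before to 50 after the start of the gene, 5′ to 3′ on the gene's strand, in RefSeq build GRCm38.p6 at chr3:95882179-95882478 (minus strand), chr15:81802423-81802722 (plus) and chr10:85185005-85185304 (minus).
Ciart: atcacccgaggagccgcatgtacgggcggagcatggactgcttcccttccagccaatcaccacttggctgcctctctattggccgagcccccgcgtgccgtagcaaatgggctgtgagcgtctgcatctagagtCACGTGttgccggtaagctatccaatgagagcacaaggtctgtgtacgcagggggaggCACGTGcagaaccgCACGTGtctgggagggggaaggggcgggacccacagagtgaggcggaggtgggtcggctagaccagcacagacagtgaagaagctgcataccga
Tef: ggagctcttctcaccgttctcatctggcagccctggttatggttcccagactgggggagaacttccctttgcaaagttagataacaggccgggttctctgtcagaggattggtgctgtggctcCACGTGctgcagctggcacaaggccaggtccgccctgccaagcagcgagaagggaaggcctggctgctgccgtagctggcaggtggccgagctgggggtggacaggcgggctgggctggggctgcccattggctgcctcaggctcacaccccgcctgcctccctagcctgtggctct
Cry1: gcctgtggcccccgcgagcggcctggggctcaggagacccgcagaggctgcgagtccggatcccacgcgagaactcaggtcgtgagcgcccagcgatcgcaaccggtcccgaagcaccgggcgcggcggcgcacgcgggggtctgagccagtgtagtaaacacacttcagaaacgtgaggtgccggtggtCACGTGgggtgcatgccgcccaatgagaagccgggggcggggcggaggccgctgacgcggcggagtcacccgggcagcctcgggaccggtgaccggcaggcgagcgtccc

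The E-box letters, a palindrome that reads the same on both strands, were found in 5 of 12 windows (41.7%) of the genes that peak with Dbp, 10 of which had a window, and in 2349 of 32851 windows (7.15%) of all genes. The holders were Bhlhe41, Ciart, Per1 and Tef, so that of Per2, Per3 and Tef only Tef is among them. The share was 1 of 9 windows (11.1%) for genes that peak with Bmal1 and 10 of 81 (12.3%) for separated genes. A link between these letters and the phase differences was not tested. Ciart held 3 of them, the first 116 bases before the start, and Tef and Cry1 held 1 each. The letters of the estrogen response element, GGTCA and TGACC with any 3 bases between them, which also read the same on both strands, were found in 23 of 32851 windows (0.07%) and in 0 of 66 windows of the estrogen-responsive genes, which says only that these letters are not in these windows.

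The members of the clock ran as follows. Per2 was at 11.1, 9.32 and 11.7 FPKM in estrus 1 to 3 and at 12.6, 13.7 and 15.1 FPKM in diestrus 1 to 3, a log2 fold change of -0.34 ± 0.106 (SE). Per3, another period gene, was at 7.16, 7.51 and 7.74 FPKM in estrus and at 9.06, 8.88 and 10.3 FPKM in diestrus, a log2 fold change of -0.29. Tef, a PAR-domain transcription factor, was at 92.2, 94.3 and 98.0 FPKM in estrus and at 106, 98.2 and 107 FPKM in diestrus. Dbp itself varied within each phase more than between them, at 33.0, 59.7 and 74.2 FPKM in estrus and at 83.6, 40.5 and 63.2 FPKM in diestrus. Ciart, a repressor of the clock loop, had the largest difference of the list, at 7.61, 4.32 and 13.2 FPKM in estrus and at 16.1, 8.47 and 13.9 FPKM in diestrus. Its log2 fold change of -0.63 was -0.11 without estrus 2 and diestrus 1. Nr1d1, the nuclear receptor Rev-erb alpha, was at 50.3, 68.9 and 66.3 FPKM in estrus and at 88.4, 57.8 and 62.2 FPKM in diestrus. Of 7 genes that peak with Bmal1, 3 were higher in estrus, with a median of -0.01. Arntl, which encodes Bmal1, was at 14.4, 16.8 and 10.7 FPKM in estrus and at 16.2, 13.2 and 12.5 FPKM in diestrus, Npas2 was separated as given above, and Cry1, a cryptochrome, was at 4.46 to 5.56 FPKM in estrus and at 5.99 to 6.91 FPKM in diestrus. The list median of the Dbp-phase genes stayed between -0.30 and -0.07 with any library left out.

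**Figure D3:**
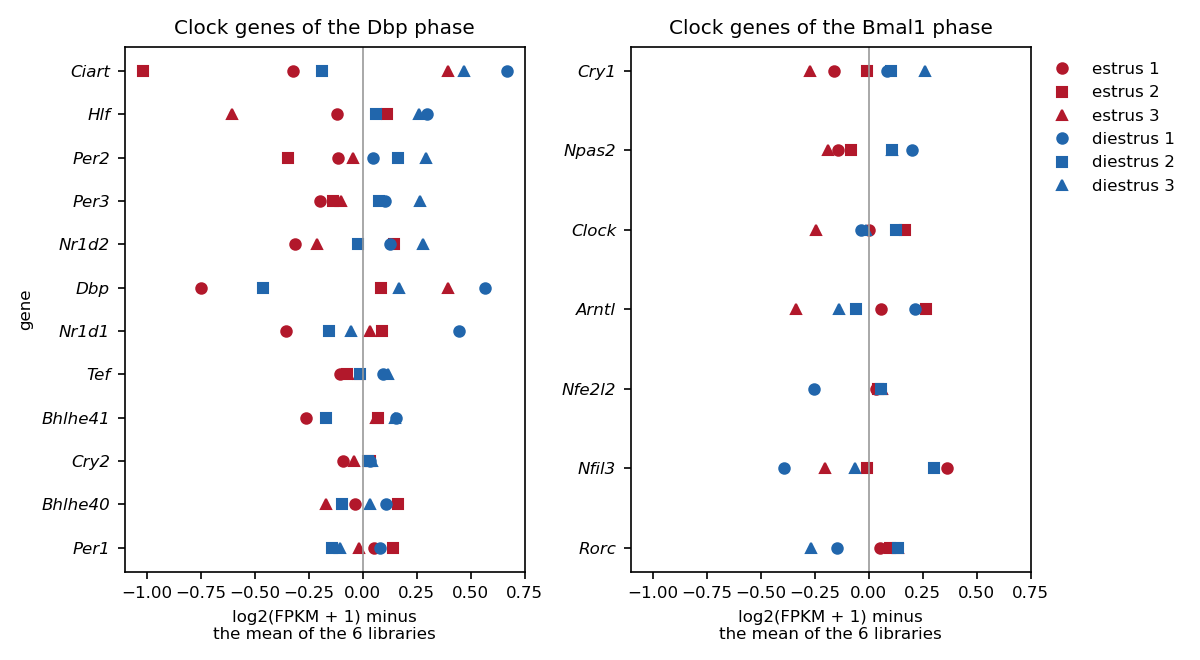
log2(FPKM + 1) minus the mean of the 6 cerebrum libraries (x axis) for the 12 clock genes that peak with Dbp and the 7 that peak with Bmal1 (y axis), 1 point per library, estrus in red and diestrus in blue. The red points of Per2, Per3, Tef, Npas2 and Cry1 lie below all blue points, while Dbp and Arntl mix.

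Immediate-early and activity-regulated genes had 5 members whose phases did not overlap, Klf2, Sik1, Gadd45b, Egr4 and Klf4, all higher in estrus, beside 4.92% of all genes. Of 39 tested, 25 were higher in estrus, with a median of 0.11 that was -0.02 without diestrus 1. Sik1, a salt-inducible kinase, was at 5.76, 5.92 and 5.20 FPKM in estrus 1 to 3 and at 3.79, 4.52 and 3.39 FPKM in diestrus 1 to 3, a log2 fold change of 0.44. Gadd45b, a stress-inducible factor of DNA demethylation, was at 12.6, 10.2 and 11.6 FPKM in estrus and at 7.22, 8.83 and 8.96 FPKM in diestrus, a log2 fold change of 0.42. The classical members were less regular. Fos was at 23.5, 19.0 and 12.2 FPKM in estrus and at 8.13, 13.9 and 15.3 FPKM in diestrus. Arc, the activity-regulated cytoskeletal gene, was at 149.8, 136 and 35.4 FPKM in estrus and at 52.0, 119 and 81.3 FPKM in diestrus, with its lowest library in estrus. Egr1 was at 191, 184 and 100.2 FPKM in estrus and at 137, 146 and 141 FPKM in diestrus. Inhba, the activin subunit, was at 2.46, 3.35 and 1.40 FPKM in estrus and at 2.74, 4.08 and 3.91 FPKM in diestrus.

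Receptor and synapse genes had medians near or just below that of all genes. Of 24 tested ionotropic and metabotropic glutamate receptor genes, 11 were higher in estrus, with a median of -0.01. Grin1, the obligatory NMDA receptor subunit, was at 143, 140.0 and 139 FPKM in estrus and at 167, 150.2 and 145 FPKM in diestrus, without overlap. The kainate receptor genes Grik1 and Grik2 were higher in estrus without overlap. For these and the lists that follow, 4.92% of all genes were higher and 2.88% lower without overlap. Of 17 GABA and glycine receptor genes, 9 were higher in estrus, with a median of 0.03 that was -0.01 after quantile normalization, and no member had phases that did not overlap. Of 27 monoamine and cholinergic receptor genes, 11 were higher in estrus, and 1, the serotonin receptor gene Htr7, had no overlap, at 3.72 to 4.01 FPKM in estrus and 2.60 to 3.53 FPKM in diestrus. Htr2c, the serotonin receptor of choroid plexus and forebrain, was at 8.68, 16.8 and 28.2 FPKM in estrus and at 11.5, 6.94 and 10.1 FPKM in diestrus, and Drd2 was at 45.2 FPKM in estrus 2 and 49.9 FPKM in diestrus 1. Of 35 neuropeptide genes, 21 were higher in estrus, with a median of 0.05 that was -0.05 without estrus 3, and those whose phases did not overlap were Oxt, higher, and Vip, lower. Of 43 genes of synaptic plasticity, 30 were lower in estrus, with a median of -0.05, and Syn1 and Syt1 of the synaptic vesicle were lower without overlap, Syt1 at 356 to 398 FPKM in estrus and 400.4 to 426 FPKM in diestrus. Camk2g, a calcium/calmodulin-dependent kinase subunit, was at 70.9, 87.1 and 62.3 FPKM in estrus and at 94.5, 85.9 and 89.1 FPKM in diestrus, and Homer1, a postsynaptic scaffold, was at 41.6, 57.0 and 29.4 FPKM in estrus and at 47.5, 58.9 and 49.9 FPKM in diestrus, overlapping in both genes.

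Housekeeping pathways showed small differences. Of 38 ribosomal protein genes, 36 were higher in estrus, with a median of 0.09 that was 0.02 without estrus 3 and 0.03 without diestrus 1, and none without overlap. Rplp1 was at 557, 542 and 609 FPKM in estrus 1 to 3 and at 475, 508 and 556 FPKM in diestrus 1 to 3. Of 44 nuclear genes of oxidative phosphorylation, 34 were higher, with a median of 0.03. Ndufa8 and Uqcrh, 2 of the 44, were higher without overlap, near the 4.92% of all genes. Of 22 heat shock and unfolded protein genes, 17 were lower in estrus, with a median of -0.08 that ran from -0.14 without diestrus 1 to -0.05 without estrus 1. Sdf2l1, an endoplasmic reticulum chaperone component, was at 4.96, 6.52 and 5.13 FPKM in estrus and at 7.15, 8.79 and 8.80 FPKM in diestrus, a log2 fold change of -0.50 ± 0.124 (SE), and Pdia4, a disulfide isomerase of the same compartment, was at 13.6 to 15.5 FPKM in estrus and at 14.3 to 20.9 FPKM in diestrus. Of 23 cholesterol synthesis genes, 11 were higher in estrus, with a median of -0.01. Lss, the lanosterol synthase, and Fdft1, the squalene synthase, were lower in estrus without overlap, beside 2.88% of all genes. Of 23 interferon-responsive genes, 7 were higher in estrus, with a median of -0.04. Stat2, which relays the interferon signal, was lower without overlap, beside 2.88% of all genes. Of 24 complement and coagulation genes, 16 were higher, with a median of 0.09 that was 0.03 without diestrus 1 and 0.05 without estrus 3. C1qa, C1qb and the tissue plasminogen activator gene Plat were higher without overlap, beside 4.92% of all genes. Plau, the urokinase gene, was lower in estrus, at 0.53 to 0.97 FPKM against 1.13 to 1.38 FPKM in diestrus, beside 2.88% of all genes lower without overlap.

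**Figure D4:**
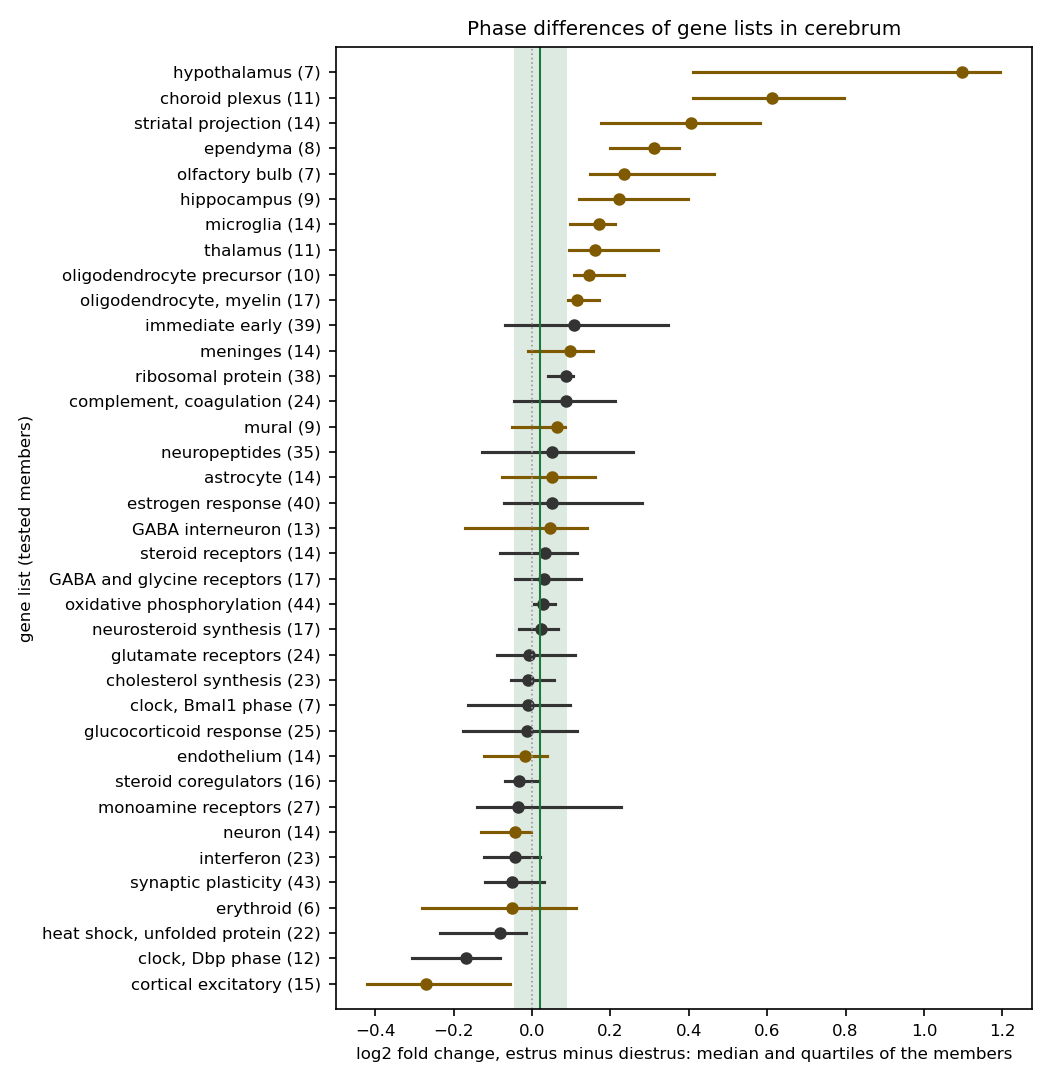
Median log2 fold change (estrus minus diestrus, points) with quartiles (bars) of each gene list with at least 6 tested members (y axis), cell and region lists in brown and pathways in black; the green line and band are the median, 0.02, and quartiles of all 12951 tested genes. Choroid plexus, 0.61, and hypothalamus, 1.10, lie farthest to the right and cortical glutamatergic markers, -0.27, farthest to the left. Some members of the choroid plexus and hypothalamus lists passed the filter only through their estrus values.

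Changes of single libraries were counted separately. In 35 genes (0.27%) 1 library lay at least 1 on the log2 scale from the nearest of the other 5, and those 5 spanned less than that distance. Estrus 3 held 13 that were high and 5 that were low, and estrus 2 held 6 high and 2 low. Slc6a3, the dopamine transporter, was at 5.97 FPKM in estrus 3 and at 0.04 to 0.15 FPKM in the other 5 libraries. Th, the enzyme that limits dopamine synthesis, was at 6.41 FPKM in estrus 3 and at 0.36 to 2.10 FPKM elsewhere, and Ddc, which completes that synthesis and was singled out after its values were seen, was at 7.23 FPKM against 1.51 to 2.94 FPKM. These genes mark dopamine neurons. Hap1, a huntingtin-associated protein, was at 119 FPKM in estrus 3 and at 30.7 to 44.2 FPKM elsewhere, Lypd1 at 43.1 FPKM against 10.95 to 15.3 FPKM, and Lcn2, the acute-phase lipocalin, at 5.52 FPKM against 0.08 to 0.68 FPKM. The high genes of estrus 2 were Gh, Pmch, Prkcd, Rab37, Klk6 and Synpo2, of which the first 3 are on the pituitary, hypothalamic and thalamic lists and the others on no regional list. Klk6 and Synpo2 were singled out after their values were seen. Prkcd, a protein kinase C gene of thalamus, was at 34.3 FPKM against 3.60 to 6.57 FPKM elsewhere, and Rab37, a small GTPase of secretory granules, was at 7.22 FPKM against 0.66 to 1.66 FPKM.

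The diestrus libraries held fewer. Ttr was low in diestrus 3, at 25.02 FPKM, and Hba-a2, a globin gene with a near-identical copy, was high there, at 134 FPKM against 10.4 to 23.5 FPKM elsewhere. Hba-a2 was also high in diestrus 3 of hypothalamus, at 131 FPKM against 6.49 to 16.8 FPKM in the other hypothalamus libraries. Rbp7, a retinol-binding protein, and Nmnat1, a nuclear NAD synthesis enzyme, were high in diestrus 2, at 5.41 FPKM against 0.23 to 0.51 FPKM and at 10.1 FPKM against 1.79 to 2.92 FPKM. Rnaset2b, a ribonuclease gene with a near-identical copy, was listed at 0 in diestrus 1 and at 5.51 to 9.96 FPKM elsewhere. In estrus 1, Lct, the lactase gene and a member of the hippocampal list, was high at 3.54 FPKM against 0.21 to 1.17 FPKM. Zfp939 and H3c15, members of families whose reads can be shared, were low there. A range of at least 1 on the log2 scale over the 6 libraries was found for 674 genes (5.2%).

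**Figure D5:**
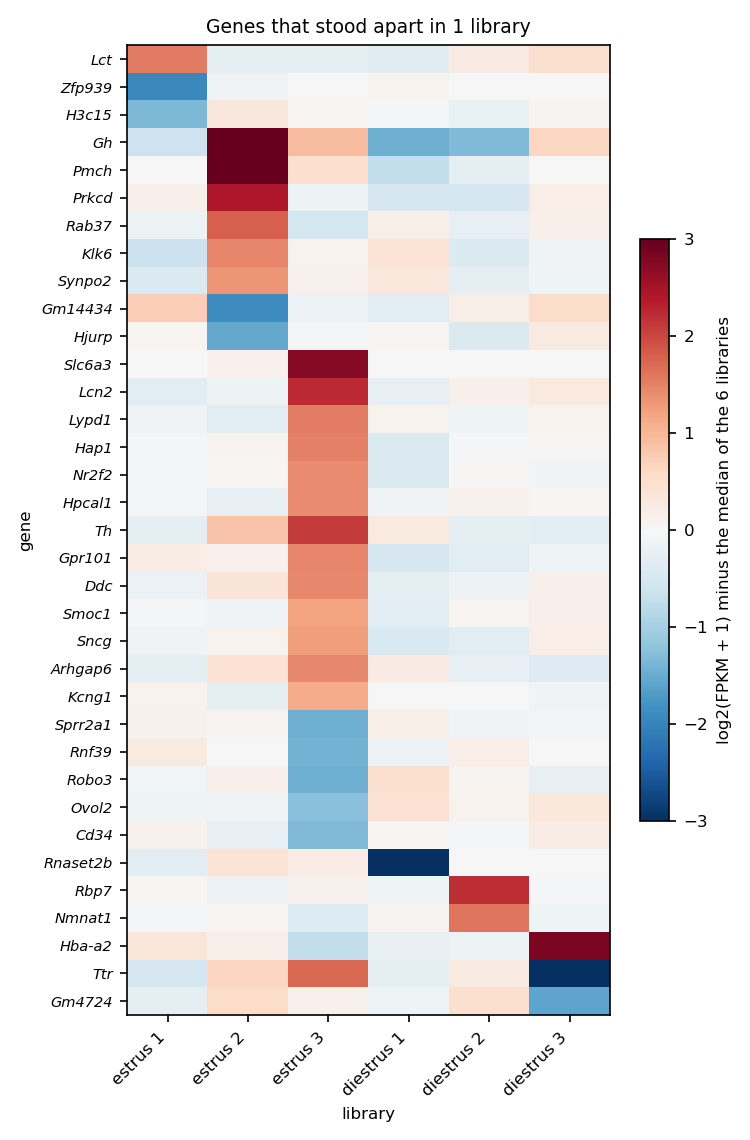
log2(FPKM + 1) minus the median of the 6 cerebrum libraries (colour, saturating at 3 in either direction) for the 35 genes that stand apart in 1 library (rows), with the libraries as columns. Estrus 3 has the most, 13 high and 5 low, with Slc6a3 and Th among the high genes.

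The hypothalamus of the same survey was set beside the cerebrum to ask whether any phase difference was particular to it. The interaction of phase and tissue gave 0 of 13280 genes (0%) at an adjusted p of at most 0.05 with limma, with a smallest adjusted p of 0.999, and 522 genes (3.93%) at an unadjusted p under 0.05. No phase difference was therefore shown to differ between the tissues. The phase test within hypothalamus called 0 of 13400 genes (0%) as well, with 1771 (13.2%) at an unadjusted p under 0.05. Of the 67 separated cerebrum genes tested in both tissues, 49 (73.1%) had the same sign in hypothalamus, beside 57.0% of all genes, and in 12 (17.9%) the hypothalamus libraries did not overlap in the same direction, beside 12.8%. The libraries of the tissues may come from the same mice, and genes are not independent, so that these shares carry no test. The 12 were Apobec3, Zfp438, Ddr1, Traf7, Mtmr14, Scamp2, Ctbp1 and Eef2, higher in estrus in both tissues, and Arnt2, Atxn2, Lin9 and Sdk2, lower, and those outside the naming rule were singled out after their values were seen. Eef2, the elongation factor of translation, was at 293 to 295 FPKM in estrus and at 280 to 286 FPKM in diestrus in cerebrum, and Arnt2, a partner of PAS-domain factors, was at 53.4 to 54.0 FPKM in estrus and at 57.6 to 60.7 FPKM in diestrus.

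The lists were partly alike in the tissues. Microglial markers had a median of 0.17 in cerebrum and 0.08 in hypothalamus, where 9 of 14 were higher in estrus beside 53.8% of all genes, and the Dbp-phase clock genes had -0.17 and -0.05. Cortical glutamatergic markers, which are low in hypothalamus, had a median of -0.01 there, and choroid plexus markers had -0.05, with 4 of 9 higher. Ribosomal protein genes were higher in estrus in 38 of 38 cases in hypothalamus, with a median of 0.18, beside 0.09 in cerebrum. Pituitary markers had medians of 1.33 in cerebrum and 2.13 in hypothalamus, where 1 library, estrus 2, stood far above the rest, with Prl at 21607 FPKM against 9.29 to 262 FPKM in the other 5. None of these differences between the tissues was tested as a list.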

How the data were processed

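RNA of 6 cerebrum libraries (estrus, n = 3; diestrus, n = 3) was compared, with 6 hypothalamus libraries as the comparison tissue. The authors filtered the reads, aligned them with Bowtie2 2.2.5 to GRCm38 p5 and quantified genes with RSEM 1.2.8, per the submitters' processing notes, and deposited FPKM values, which carry no read counts. Differences were therefore fitted here on log2(FPKM + 1) with limma 3.58.1 (R 4.3.3; trend, Benjamini-Hochberg) rather than with a count test, after a filter at a mean of 1 FPKM over the 6 libraries. A call needed an adjusted p of at most 0.05 and a log2 fold change of at least 1 for a DEG. The depth of 15300000 to 15600000 reads was read from the steps of low FPKM values (within 0.2 of a whole read for 64.4% to 75.9% of them) and limits genes near 1 FPKM most.

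The cerebrum and its 39 gene lists (777 genes) were chosen with earlier results of these data known. The text names genes past the test, the 10 separated genes with the largest difference in each direction, hormone receptors, the most abundant and most different members of each list (up to 3 each) and the 5 most distant genes of each library; others are named as singled out, and a few genes the rule gives are not reported here. Of 20414 genes, 20265 had a symbol. Promoter windows are from RefSeq. Another pseudocount, filter, scaling, variance model, sample set, a replicate block and leaving out each library were tried. The fit was tested on simulated data.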

Additional observations from a re-analysis of the deposited data

Results flagged for a closer look

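Egr4, an immediate-early transcription factor, was picked out because all estrus libraries of cerebrum lay above all diestrus libraries and the reverse held in hypothalamus. In cerebrum it was at 39.3, 26.7 and 26.5 FPKM in estrus 1 to 3 and at 20.8, 23.8 and 24.6 FPKM in diestrus 1 to 3, a log2 fold change of 0.38. In hypothalamus it was at 3.20, 2.48 and 1.83 FPKM in estrus and at 3.86, 3.24 and 3.34 FPKM in diestrus, a log2 fold change of -0.37. The difference between the tissues was 0.75 on the log2 scale, and its limma adjusted p was 0.999.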

How the results depend on the processing

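Of 70 genes followed through 19 alternatives, 69 kept their direction under each alternative that tested them. The exception, Nr3c2, with a log2 fold change of 0.29, ran from -0.10 (without estrus 1) to 0.57 with single libraries left out. Many of the 70 were named because their phases did not overlap. That choice fixes their direction when a library is left out or the pseudocount changes, so the count is no measure of robustness. DEGs numbered 0 except in the fit of all 90 libraries, with 5 (34 at an adjusted p of at most 0.05), a fit that takes its spread from all 15 tissues. Genes at an unadjusted p under 0.05, 389 as reported, numbered 764 without estrus 2 and diestrus 1 and 697 with the striatal list as a covariate, both chosen after seeing the data. They numbered 254 with a filter at 5 FPKM and 627 with none, which change the genes tested, 253 in the fit of 90 and 810 with hypothalamus, and 240 (without diestrus 2) to 933 (without estrus 2) with single libraries left out. With fewer samples, non-overlapping genes numbered 1704 to 3216 and separated genes 187 to 496 (1010 and 69 as reported), and separated genes 116 without a filter. Single-library genes, 35 as reported, numbered 228 at a distance of 0.5, 15 with a filter at 5 FPKM, 70 with a pseudocount of 0.1 and 20 to 83 with single libraries left out. Apart from the settings that change the genes or samples by construction, the cause was not tested. The interaction with hypothalamus stayed at 0. Replicate numbers were not used as pairs. Correlations of deviations were -0.568, -0.423 and 0.077 for numbers 1 to 3, and 0.578 for estrus 2 with diestrus 1, the striatal-high libraries. With so few libraries these values cannot show or exclude a batch shared by number. The replicate block gave 0 DEGs and 296 genes at an unadjusted p under 0.05. Depth limits genes near 1 FPKM, such as Esr1.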
